A study of Homo sapiens with 12 samples.

Results

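The genes examined here encode the chains of the collagens and laminins, the structural proteins of interstitial matrix and basement membrane. Members were the protein-coding rows of the deposited tables whose symbol is COL, a number, A and a number, or LAM, a letter from A to C and a number. This gave 48 genes (37 collagen and 11 laminin chains) of 27412 genes in all, and 32 of them (22 collagen and 10 laminin chains) passed the filter on low counts and were tested among 14950 genes in total. RNA was sequenced from cultures of MDA-MB-231, a triple-negative human line of breast carcinoma cells, after 24 h in 4 groups of 3 libraries each. The vehicle group received DMSO and water, the BITC group 2 µM BITC, the ZA group 1 µM ZA, and the BITC+ZA group both compounds at these doses. The labels give the compounds only by these abbreviations, which are read here, from knowledge of the study, as benzyl isothiocyanate, an electrophile from cruciferous plants, and zoledronic acid, a bisphosphonate that blocks the mevalonate pathway. The cells were plated in triplicate on dishes, and whether each library of a triplicate stands for its own culture is not stated, so p-values measure the spread between these libraries, which may be technical.

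Collagens are trimers of alpha chains wound into a triple helix. Fibrillar types build the cables of interstitial matrix, type IV forms the sheet of the basement membrane, type VI forms beaded filaments, type VII anchors the basement membrane to the tissue beneath, and FACIT collagens sit on the surface of fibrils. Laminins are trimers of one alpha, one beta and one gamma chain that polymerise in the basement membrane and bind integrins and dystroglycan. LAMA3 and LAMB3 are chains of the laminin of epithelial anchoring complexes, and LAMA5 joins LAMB1 or LAMB2 and LAMC1 in the laminins that are widespread in adult basement membranes. Carcinoma cells lay down these proteins themselves and meet them when they invade.

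The cells expressed a laminin-rich set (levels in FPKM, per length, mean over the 12 libraries). LAMB3 stood highest at 68.6 (58.3 to 76.9 over the libraries), above LAMC1 at 32.6, LAMB2 at 31.3 and LAMB1 at 30.4, and the last 3 differed by less than the range of each over the libraries. The most abundant collagen chains were COL13A1 (21.9), a transmembrane collagen, COL12A1 (21.0), a FACIT, COL8A1 (18.9), a short-chain network collagen, and COL5A1 (13.0), a minor fibrillar chain, with LAMA5 at 20.0 among them. COL18A1, just above COL6A1 (11.9), then COL4A2 (9.80), COL7A1 (6.72), COL4A1 (4.50) and COL6A2 (4.18) completed the 15 highest. The chains of type I collagen, the main fibrillar collagen of connective tissue, were low, with COL1A2 at 1.10 and COL1A1 at 0.940. Chains that assemble together were not level with each other: LAMB3 at 68.6 stood against LAMA3 at 3.50, and COL4A2 at 9.80 against COL4A1 at 4.50.

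**Figure D1:**
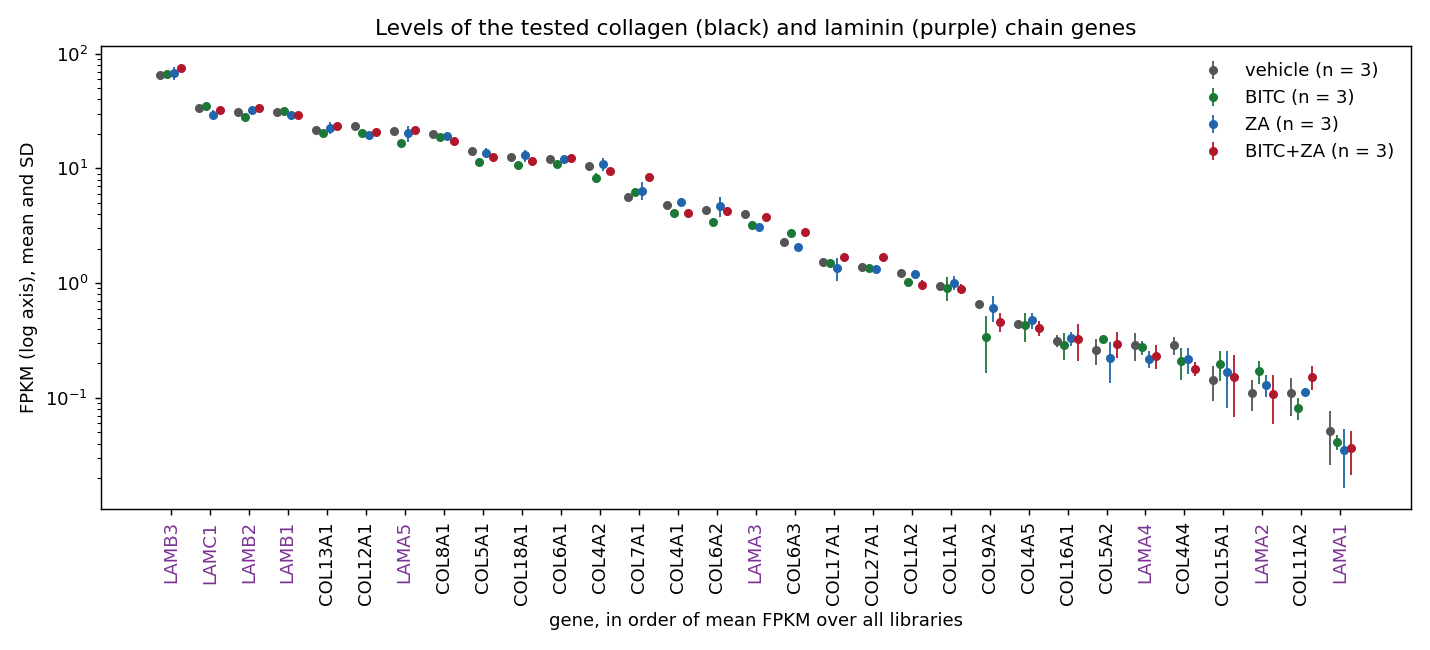
Mean FPKM with SD (log axis) of 31 tested chains in each of the 4 groups (n = 3 libraries), in order of the mean over all libraries. The order runs from LAMB3 at 68.6 down to LAMA1 at 0.0410, and the groups differ little beside the span between genes.

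The other 16 members had too few reads for a test. COL4A3 (63 counts summed over the 12 libraries), COL4A6 (36) and COL3A1 (18) were among them, as were COL9A3, COL8A2, COL24A1, COL20A1, LAMB4, COL11A1, COL26A1, COL10A1, COL23A1, COL28A1, COL6A6, COL2A1 and COL14A1, with sums from 2 to 70 counts. COL3A1, the partner of type I collagen in soft tissue, had between 0 and 5 counts in each library. Among markers of this mesenchymal-like, receptor-negative line, VIM stood at a median of 229 FPKM, CD44 at 94.4, ERBB2 at 9.04, CDH1 at 0.0392 and ESR1 at 0. ERBB2, CDH1, ESR1 and EPCAM were listed beforehand as low or absent. Of these, ERBB2 ran from 7.35 to 9.92 FPKM over the libraries, and EPCAM stood at 5.89 FPKM (4.76 to 7.49 over the libraries). PGR, on the same list, was not among the joined genes. Of 5 fibroblast markers other than collagens that were matched, PDGFRA stood at 0, FAP at 0.00876, THY1 at 0.00485, LUM at 0.144 and PDGFRB at 2.33 FPKM in the median library, and their sum ran from 2.36 to 3.07 in vehicle, 1.95 to 2.50 in BITC, 2.59 to 3.07 in ZA and 2.33 to 2.78 in BITC+ZA.

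Libraries held 15874857 to 17375664 counts. They differed in how a gene's deviation from its mean followed its GC content: the rank correlation across genes was -0.21 to -0.01 in vehicle, -0.43 to -0.13 in BITC, 0.21 to 0.34 in BITC+ZA, and 0.40 and 0.43 in ZA libraries 2 and 3 but -0.37 in ZA library 1. ZA library 1 stood apart also by its share of mitochondrial counts (4.95% against 3.88 and 3.92%) and by its counts, which differed from those of ZA libraries 2 and 3 by a chi-square per gene of 15.7 and 14.1, against 2.25 to 3.80 for all other replicate pairs. Chains tested here are GC-rich and long, with a median GC content of 55.7% against 48.2% for all genes tested and a median exon length of 9613.5 against 4617.5 bases. In the 18 chains with at least 55% GC the median log2 deviation from the 12-library mean was -0.20, -0.14 and -0.08 in the BITC libraries and -0.10, 0.13 and 0.17 in the ZA libraries, while in the other 14 chains it was 0.05, 0.03 and 0.05, and -0.01, -0.11 and -0.06. Called changes of the chains below are given with their value after a correction for GC content and length, or without ZA library 1. This is done where either ends the call, turns the direction or changes the size by more than 1.5 times. For the genes that make, process and bind the chains, only the correction was read. The part of GC content in the results was not tested beyond these values.

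A chain was called at an adjusted p below 0.05 (edgeR, Benjamini-Hochberg over all genes tested), and fold changes are log2 with the standard error. Under BITC, 6 of 32 chains were called against 1.78% of all genes: COL6A3 rose (0.776% of all genes) and COL5A1, COL4A2, LAMA3, LAMA5 and COL12A1 fell (1%). Under ZA, COL12A1 and LAMA3 fell (2 of 32, against 1.06% of all genes, 0.709% lower). Under both compounds, COL7A1, COL6A3, COL27A1 and LAMB3 rose (5 of 32 were called in either direction, against 4.9% of all genes, 2.48% higher and 2.41% lower). The median log2 change over the 32 chains was -0.11 for BITC (8 chains above 0), -0.02 for ZA (15 above 0) and -0.04 for both compounds (14 above 0), against 0.0015, 0.0157 and -0.0010 over all genes tested. The BITC median was -0.04, with 13 chains above 0, once corrected for GC content and length. The range of the vehicle libraries did not overlap that of BITC for 15 chains (25.2% of all genes), that of ZA for 5 (16.4%) and that of BITC+ZA for 17 (32.8%). These 3 comparisons share the vehicle libraries.

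The counts moved with single libraries, also with libraries outside a comparison, because all 12 share one estimate of the spread. The share of all genes called moved with them and is given beside each count. For BITC the count was 0 without BITC library 1 (11 chains at an unadjusted p below 0.05; 0.667% of all genes), 3 without BITC 2 (0.897%), 1 without any one vehicle library (0.734 to 0.826%) and 2 without any one BITC+ZA library (1.29 to 1.37%). Without ZA library 1 it was 12 (2 higher, 10 lower) with 9.79% of all genes called, the further 6 being COL4A1, COL18A1, COL6A2, COL9A2 and LAMB2, which were lower, and COL7A1, which was higher. For ZA it was 0 without any one vehicle library or ZA 2 (3 to 5 chains at an unadjusted p below 0.05; 0.00655 to 0.197% of all genes), and DESeq2 on all libraries called 3 (2.84%). Without ZA 1 it was 12 (8 higher, 4 lower) with 16.3% of all genes called, the further 10 being COL7A1, COL4A1, COL4A2, COL6A2, COL13A1, COL18A1, LAMB2 and LAMB3, which were higher, and LAMB1 and LAMC1, which were lower. For both compounds it was 3 without vehicle 1 (2.14%) and 2 without vehicle 2 or 3 or any one BITC+ZA library (1.89 to 2.65%). Without ZA 1 it was 12 (6 higher, 6 lower) with 14.6% of all genes called, the further 7 being COL13A1 and LAMB2, which were higher, and COL12A1, COL8A1, COL4A1, COL5A1 and COL1A2, which were lower. With the GC and length correction the counts were 7, 4 and 10, against 4.19%, 2.24% and 7.59% of all genes, and the split for both compounds changed from 4 higher and 1 lower to 3 higher and 7 lower.

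Between the treated groups, 9 chains differed in ZA against BITC (10.5% of all genes, 6.11% higher and 4.44% lower): COL18A1, COL4A1, COL4A2, COL5A1, COL6A2, LAMA5 and LAMB2 were higher in ZA, and COL6A3 and LAMC1 lower. Adding ZA to BITC raised 8 chains (14.7% of all genes, 6.6% higher and 8.15% lower): COL7A1, LAMA5, COL27A1, LAMB2, LAMA3, COL13A1, LAMB3 and COL5A1. Adding BITC to ZA raised COL6A3, COL7A1, COL27A1 and LAMA3 and lowered COL4A1 (5 of 32, against 6.95% of all genes, 3.31% higher and 3.64% lower). The count for ZA against BITC was 5 without BITC 1 or BITC 2 (3.65 and 2.49% of all genes), 3 without ZA 2 (2.54%) and 15 without ZA 1 (29.6%). The count for adding ZA to BITC was 2 without BITC 1 (3.43%), 5 without BITC 2 or BITC+ZA 1 (5.18 and 7.12%), 4 without BITC+ZA 2 or 3 (7.29 and 3.95%) and 13 (12 higher, 1 lower) without ZA 1 (26.9%). It was 4 (3 higher, 1 lower) after the GC and length correction (8.64%). Adding BITC to ZA gave 2 without BITC+ZA 2 or 3 (2.56 and 2.41%), 8 without ZA 3 (8.11%), 12 (5 higher, 7 lower) without ZA 1 (12.7%), and 9 (3 higher, 6 lower) after the correction (10.3%). The interaction, which is how far the change with both compounds exceeds the single changes added together, was called for LAMA3, LAMA5 and COL12A1 (3 of 32, against 2.84% of all genes, 1.31% positive), all positive. In all, 16 of the 32 chains were called in at least 1 of the 7 tests, against 25.5% of all genes. The count of interactions was 1 without any one vehicle library, BITC 1, BITC 3, BITC+ZA 2 or BITC+ZA 3 (0.627 to 1.72% of all genes), and 5 without ZA 3 (6.03%). An analysis of log2(FPKM + 1) with limma called 12 of the 38 changes and none of the 3 interactions (6 chains at an unadjusted p below 0.05). The 12 were COL4A1, COL4A2, COL5A1, COL6A3 and LAMC1 in ZA against BITC, COL7A1, COL27A1, LAMA5 and LAMB2 with ZA added to BITC, COL4A1 and COL6A3 with BITC added to ZA, and COL7A1 with both compounds against vehicle. A fit of only the 2 groups compared called 24 of the 35 changes outside the interaction. The 11 it did not call were COL12A1 and LAMA3 under ZA, COL4A1, COL7A1 and LAMA3 with BITC added to ZA, and COL18A1, COL5A1, COL6A2, LAMA5, LAMB2 and LAMC1 in ZA against BITC.

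**Figure D2:**
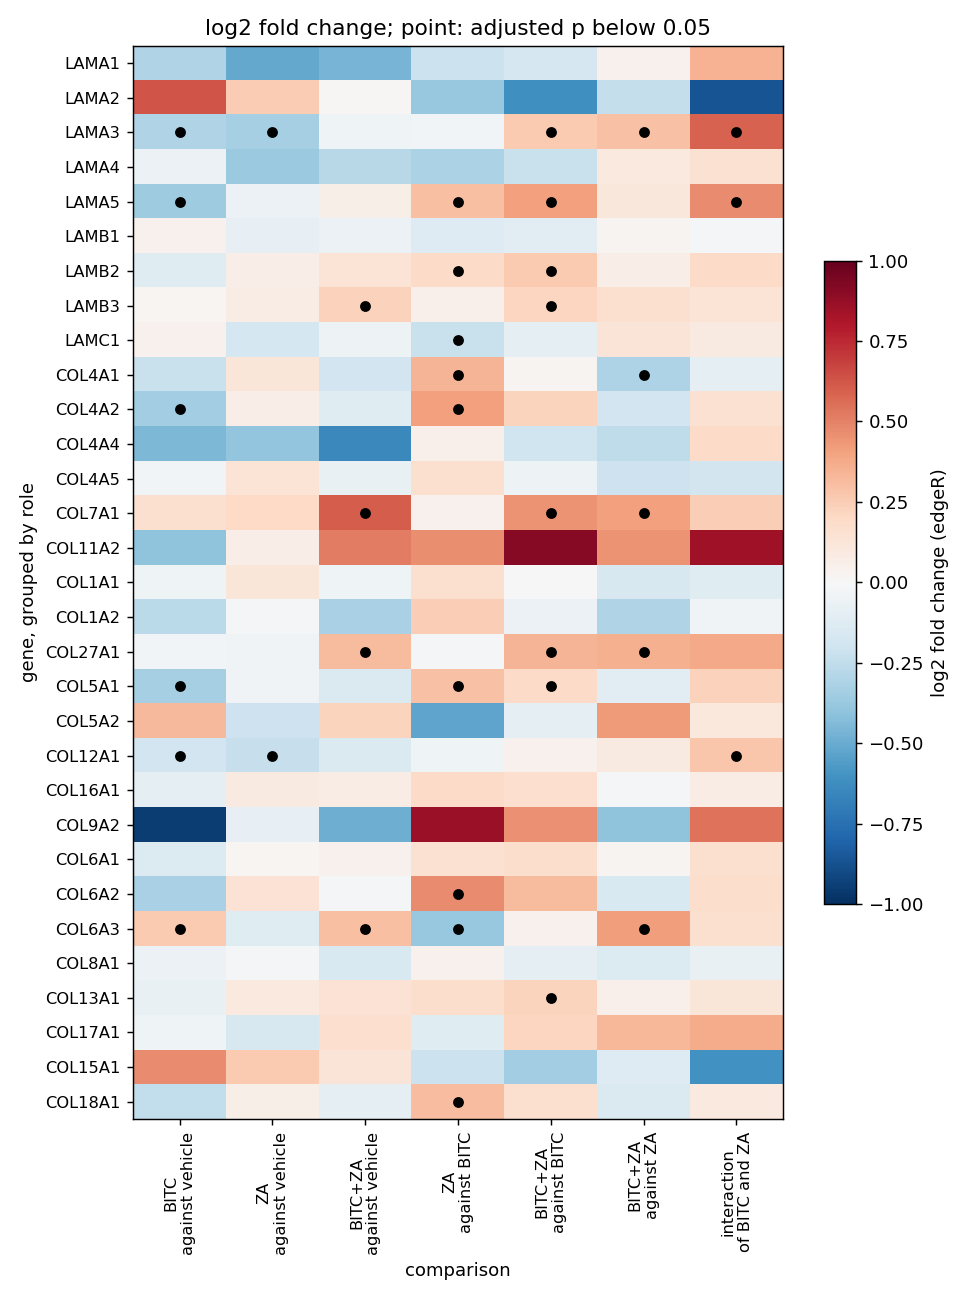
Log2 fold change of 31 tested chains (rows, by role) in the 6 comparisons and the interaction (columns), with a point where the adjusted p was below 0.05. The 37 points fall on 15 chains, and LAMA3 is the chain with a point in 5 of the 7 columns.

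LAMA3 fell under each compound alone and had the largest called interaction. It encodes the alpha chain of the epithelial anchoring laminin. Its normalised CPM (counts scaled to library size) were 60.2, 57.4 and 57.5 in vehicle, 44.5, 52.2 and 45.1 in BITC, 44.6, 46.0 and 48.1 in ZA, and 53.0, 60.1 and 56.6 in BITC+ZA. All 6 libraries with a single compound lay below all 6 of the other groups. LAMA3 fell by 0.30 ± 0.07 under BITC (adjusted p = 0.0188) and by 0.33 ± 0.07 under ZA (adjusted p = 0.0176), whereas with both compounds its value was -0.05 ± 0.07 (adjusted p = 0.758). In bulk RNA, fewer cells that express a gene and less RNA per cell cannot be told apart. The interaction was 0.59 ± 0.10 (adjusted p = 0.00240). It was called in each of the 12 fits that left out 1 library (0.55 to 0.67), and it was 0.41 (adjusted p = 0.00288) after the GC and length correction.

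Adding ZA to BITC raised LAMA3 by 0.26 ± 0.07 (adjusted p = 0.0169) and adding BITC to ZA raised it by 0.29 ± 0.07 (adjusted p = 0.0135), the latter with 0.17 and an adjusted p of 0.0521 after the GC and length correction. The BITC call was lost without vehicle 1, 2 or 3, BITC 1 or BITC 3 (-0.32 to -0.26, adjusted p up to 0.160). That of ZA was lost without vehicle 1, 2 or 3 or ZA 2 (-0.35 to -0.31, up to 0.146). Adding ZA to BITC was not called without BITC 1, BITC 3, BITC+ZA 2 or BITC+ZA 3 (0.21 to 0.26, up to 0.109), nor adding BITC to ZA without BITC+ZA 2 or 3 (0.24 to 0.29, up to 0.103).

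The bases before the LAMA3 start are shown because LAMA3 was the one chain whose promoter held the AP-1 motif. RefSeq promoters (GRCh38.p14) were matched for 36 of the 48 members, and the 250 bases before each start were searched on both strands. The AP-1 motif TGANTCA was found in 6.6% of 27305 promoters and in 1 of the 36, LAMA3, with 2 matches that begin at positions -125 and -69 from the start. The NRF2 element core TGACNNNGC was found in 2 of the 36 (11% of all), COL4A5 and COL4A6, which share a promoter region, the GC box GGGCGG in 22 (42.3%) and the CCAAT box CCAAT in 8 (33%). None of these motifs overlaps another in the sequences shown. In the 36 member promoters the median GC content of the searched bases was 64.6%, against 58.0% in all promoters. Its part in the motif counts was not tested. Capitals mark the AP-1 matches and the GC box, which lies on the opposite strand. The stretch is chr18:23872770-23873019 on the plus strand.
LAMA3: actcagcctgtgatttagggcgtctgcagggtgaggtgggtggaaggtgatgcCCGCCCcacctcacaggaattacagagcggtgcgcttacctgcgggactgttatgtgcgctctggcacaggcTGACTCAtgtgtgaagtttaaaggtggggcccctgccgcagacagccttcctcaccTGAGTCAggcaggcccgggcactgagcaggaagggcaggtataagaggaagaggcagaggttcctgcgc
This RefSeq start at 23873020 lies inside the gene, 183577 bases downstream of the first start in GENCODE v29. Of the 10 protein-coding LAMA3 transcripts there, 1 begins within 100 bases of the RefSeq start and 5 begin further upstream, so the counts per gene do not tell which promoter the reads came from. A match of letters is a description and not a binding site.

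LAMB3, the beta chain that pairs with LAMA3, was highest with both compounds. It had 301, 311 and 310 CPM in vehicle, 314, 304 and 317 in BITC, 277, 351 and 343 in ZA, and 370, 357 and 357 in BITC+ZA. The BITC+ZA libraries were the highest of all, and ZA library 1 the lowest. LAMB3 was higher with both compounds than in vehicle by 0.23 ± 0.06 (adjusted p = 0.0233) and than with BITC alone by 0.21 ± 0.06 (adjusted p = 0.0212). The second value was 0.08 (adjusted p = 0.145) after the GC and length correction, which also called LAMB3 higher with both compounds than with ZA (0.16, adjusted p = 0.000781). Without any one vehicle or BITC+ZA library the first was not called (0.21 to 0.24, adjusted p up to 0.135), nor the second without BITC 1 or 2 or any one BITC+ZA library (0.19 to 0.22, up to 0.0938).

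LAMA5, the alpha chain of the widespread basement membrane laminins, had 305, 308 and 306 CPM in vehicle, 229, 241 and 249 in BITC, 244, 300 and 339 in ZA, and 305, 331 and 321 in BITC+ZA. The BITC libraries lay below those of vehicle and of BITC+ZA, and ZA library 1 lay within the BITC range. LAMA5 fell by 0.35 ± 0.08 under BITC (adjusted p = 0.0497), and adding ZA to BITC raised it by 0.41 ± 0.08 (adjusted p = 0.00766). It was higher in ZA than in BITC by 0.30 ± 0.08 (adjusted p = 0.0377), and the interaction was 0.47 ± 0.12 (adjusted p = 0.0497). After the GC and length correction these 4 values were -0.17, 0.14, 0.11 and 0.20, with adjusted p-values of 0.00205, 0.0101, 0.0357 and 0.0177. Without BITC 1, adding ZA to BITC gave 0.38 (adjusted p = 0.0563). The BITC change and the interaction kept their calls only without ZA 1 or ZA 3: leaving out any other library gave -0.38 to -0.33 (adjusted p up to 0.237) and 0.44 to 0.50 (up to 0.153). ZA against BITC was called in 1 of the 12 such fits, that without ZA 1 (0.42), and the 11 others gave 0.18 to 0.33 (up to 0.222).

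LAMB2, a beta chain found with LAMA5 in muscle, nerve and kidney basement membranes, had 210, 219 and 213 CPM in vehicle, 189, 197 and 203 in BITC, 202, 229 and 242 in ZA, and 242, 228 and 236 in BITC+ZA. It rose by 0.26 ± 0.05 when ZA was added to BITC (adjusted p = 0.00436) and was higher in ZA than in BITC by 0.19 ± 0.05 (adjusted p = 0.0234), where the groups overlapped. These became 0.09 (adjusted p = 0.107) and 0.06 (adjusted p = 0.305) after the GC and length correction. The second was also lost without BITC 1, BITC 2, ZA 2 or ZA 3 (0.13 to 0.19, adjusted p up to 0.172). LAMC1, the common gamma chain, was lower in ZA (269, 228 and 260 CPM) than in BITC (298, 302 and 283 CPM) by 0.22 ± 0.05 (adjusted p = 0.00820), with -0.21 (adjusted p = 0.0675) without BITC 2 and -0.15 (adjusted p = 0.0833) without ZA 2. LAMB1, the beta chain most often paired with LAMC1, was called in none of the 6 comparisons or the interaction in edgeR (CPM from 236 to 266 over the 12 libraries), while DESeq2 (-0.13, adjusted p = 0.0364) and limma on log2(FPKM + 1) (-0.13, adjusted p = 0.0494) called it lower in ZA than in BITC. The GC and length correction called it lower with both compounds than with BITC (-0.12, adjusted p = 0.0249). LAMA1, LAMA2 and LAMA4 had 0.298 to 4.25 CPM and were not called.

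**Figure D3:**
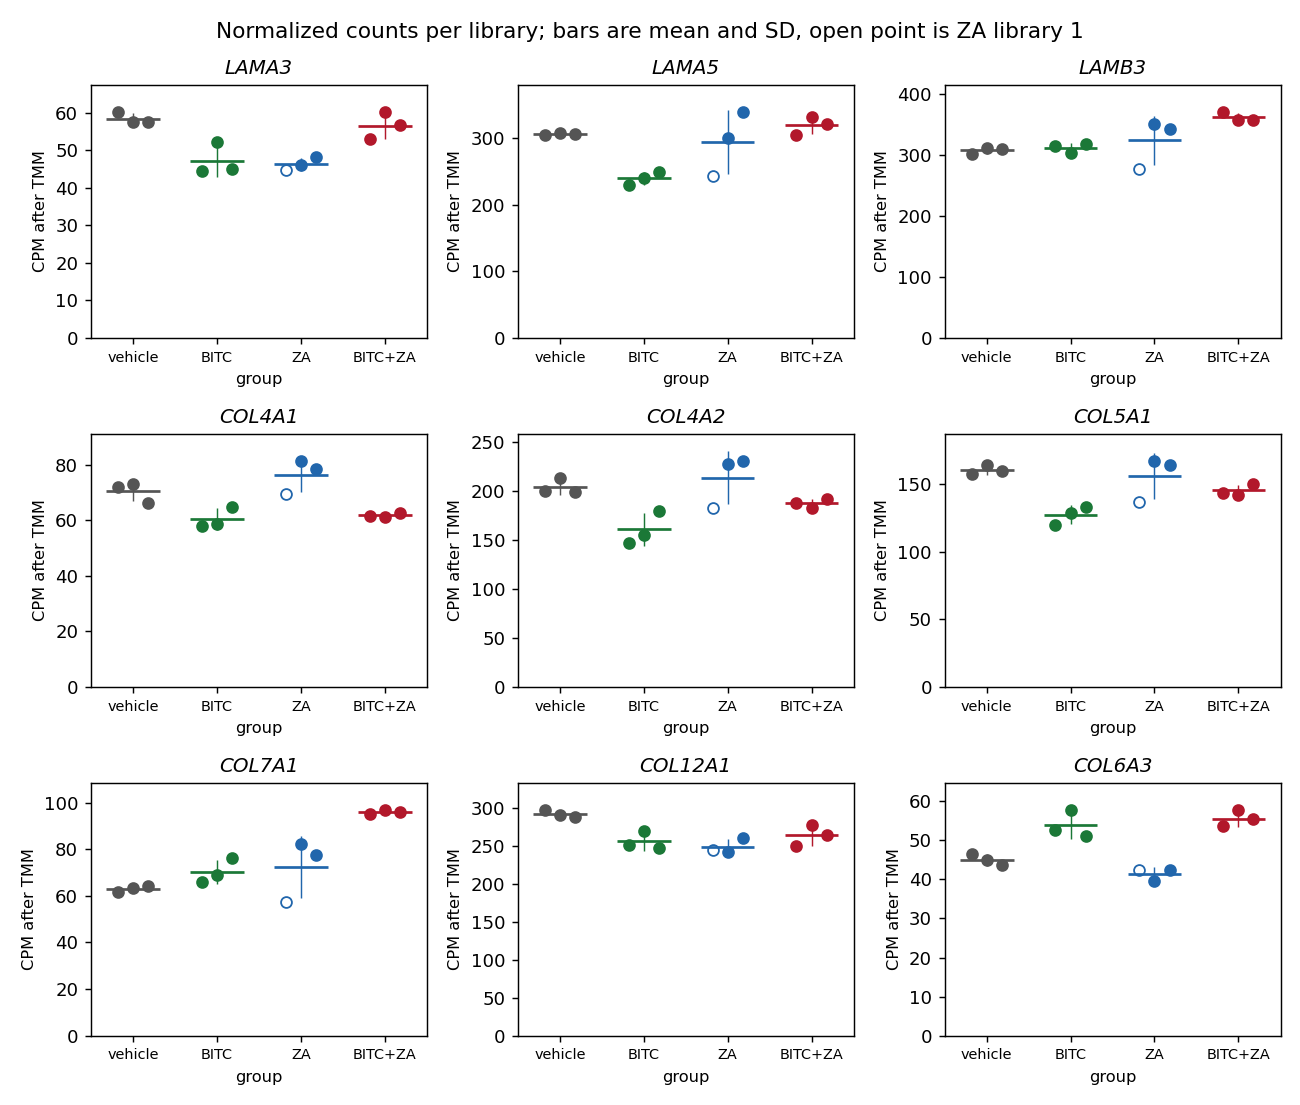
Normalised counts (CPM after TMM scaling, linear axes from 0) of 9 chains in each library by group, with the mean and SD (n = 3) and ZA library 1 as an open point. LAMA3 is low in both single-compound groups (44.5 to 52.2 CPM) and COL7A1 is highest with both compounds (95.3 to 96.9 CPM), while ZA library 1 lies below ZA libraries 2 and 3 for 7 of the 9 chains, all but COL12A1 and COL6A3.

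COL7A1 showed the largest called change of the collagen and laminin chains. It forms the anchoring fibrils beneath epithelial basement membranes. Its CPM were 61.6, 63.3 and 64.1 in vehicle, 65.9, 68.9 and 76.0 in BITC, 57.3, 82.3 and 77.4 in ZA, and 95.3, 96.9 and 96.0 in BITC+ZA. The BITC+ZA libraries were above all 9 others. COL7A1 rose by 0.61 ± 0.09 (1.52-fold) under both compounds (adjusted p = 0.000587), by 0.45 ± 0.09 when ZA was added to BITC (adjusted p = 0.00541) and by 0.41 ± 0.09 when BITC was added to ZA (adjusted p = 0.0117). The interaction was 0.25 ± 0.13 (adjusted p = 0.323). The first 2 calls held in each of the 12 fits that left out 1 library (0.59 to 0.62 and 0.41 to 0.51). The third was lost without BITC+ZA 2 or 3 (0.40 to 0.41, adjusted p of 0.0620 in both) and was 0.26 (adjusted p = 0.000669) without ZA 1. After the GC and length correction the 3 values were 0.52, 0.21 and 0.34, each with an adjusted p below 0.05, and COL7A1 was also called under BITC (0.31, adjusted p = 5.48e-05) and under ZA (0.18, adjusted p = 0.0424), where the uncorrected values were 0.16 (adjusted p = 0.436) and 0.20 (adjusted p = 0.305). Without ZA 1 and with no correction both were called as well, at 0.16 (adjusted p = 0.0442) and 0.35 (adjusted p = 1.29e-05).

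The COL7A1 promoter is shown beside the largest change. It holds 3 GC boxes, in capitals, and neither the AP-1 motif nor the NRF2 element core within these 250 bases. It lies at chr3:48595330-48595579 and is written along the minus strand, on which the gene is read.
COL7A1: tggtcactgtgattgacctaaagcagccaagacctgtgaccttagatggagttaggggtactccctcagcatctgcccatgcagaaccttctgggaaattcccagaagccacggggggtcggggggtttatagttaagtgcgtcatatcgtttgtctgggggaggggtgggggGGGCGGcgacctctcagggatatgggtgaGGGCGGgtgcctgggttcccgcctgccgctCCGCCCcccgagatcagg

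Type IV collagen chains COL4A1 and COL4A2 were higher in ZA than in BITC. COL4A1 and COL4A2 form the trimer found in most basement membranes. COL4A1 had 71.8, 73.0 and 66.3 CPM in vehicle, 57.7, 58.7 and 64.8 in BITC, 69.5, 81.3 and 78.3 in ZA, and 61.4, 61.2 and 62.4 in BITC+ZA. COL4A2 had 200, 214 and 199 CPM in vehicle, 147, 155 and 180 in BITC, 183, 228 and 231 in ZA, and 188, 182 and 192 in BITC+ZA. Both were lower in every BITC library than in any ZA library. COL4A1 was higher in ZA than in BITC by 0.34 ± 0.07 (adjusted p = 0.00247) and fell by 0.31 ± 0.07 when BITC was added to ZA (adjusted p = 0.00501), and both calls held in each of the 12 fits that left out 1 library. COL4A2 was higher in ZA than in BITC by 0.41 ± 0.08 (adjusted p = 0.00502), with 0.36 (adjusted p = 0.0511) without ZA 2. When ZA was added to BITC, COL4A2 was not called by edgeR. That rise was called by DESeq2 (0.22, adjusted p = 0.0295) and without ZA 1 (0.22, adjusted p = 0.000596), but not after the GC and length correction.

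COL4A2 fell by 0.34 ± 0.08 under BITC (adjusted p = 0.0341), and COL4A1 had -0.22 ± 0.07 there (adjusted p = 0.0904). The COL4A1 change was called without ZA 1 (-0.22, adjusted p = 0.00352) and in the fit of only these 2 groups (-0.22, adjusted p = 0.00726), but not after the GC and length correction. The COL4A2 call was lost without any one vehicle or BITC+ZA library, BITC 1 or BITC 2 (-0.36 to -0.29, adjusted p up to 0.178), and the change was -0.18 (adjusted p = 0.00358) after the GC and length correction. With that correction both chains were also called lower under both compounds than in vehicle (COL4A1 -0.24, COL4A2 -0.23) and COL4A2 than in ZA (-0.34), and COL4A1 had an interaction of -0.32 (adjusted p = 0.00873), against -0.09 (adjusted p = 0.675) without it. COL4A5 (3.93 to 6.79 CPM) and COL4A4 (1.37 to 3.49 CPM), chains of the kidney and eye networks, were not called.

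COL4A1 and COL4A2 are read in opposite directions from starts 127 bases apart on chromosome 13 (RefSeq 110307157 on the minus strand and 110307284 on the plus strand). The bases between the starts are shown because both genes begin at its ends, at chr13:110307158-110307283, written on the plus strand. Capitals mark 1 CCAAT box and 1 GC box.
COL4A1 and COL4A2: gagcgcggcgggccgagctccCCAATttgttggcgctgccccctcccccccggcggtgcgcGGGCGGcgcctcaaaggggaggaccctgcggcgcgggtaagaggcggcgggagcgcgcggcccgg
In the deposited coordinates the extents of both genes overlap, with a gap of -1422 bases. No source used here states the strand setting of the counting, so reads from the overlap may count for either gene.

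Among the fibrillar chains, COL5A1, which starts and limits the width of type I fibrils, was lower in BITC than elsewhere. Its CPM were 157, 164 and 160 in vehicle, 120, 129 and 133 in BITC, 137, 167 and 164 in ZA, and 144, 142 and 150 in BITC+ZA, and the BITC libraries were the 3 lowest. COL5A1 fell by 0.33 ± 0.06 under BITC (adjusted p = 0.00259) and was higher in ZA than in BITC by 0.29 ± 0.06 (adjusted p = 0.00418). Without BITC 1 the BITC change was -0.29 (adjusted p = 0.0539), and after the GC and length correction it was -0.21 (adjusted p = 0.000203) and the ZA against BITC difference 0.18 (adjusted p = 0.00105). The correction also called COL5A1 lower with both compounds than in vehicle (-0.22, adjusted p = 3.91e-05). Adding ZA to BITC raised it by 0.19 ± 0.06 (adjusted p = 0.0382), but the direction turned to -0.01 (adjusted p = 0.902) after the correction, and the call was lost without any one vehicle or BITC+ZA library, BITC 1 or BITC 2 (0.15 to 0.21, adjusted p up to 0.211).

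COL27A1, a fibrillar collagen of cartilage, rose with both compounds. It had 21.3, 18.5 and 18.4 CPM in vehicle, 18.1, 19.1 and 20.1 in BITC, 19.6, 18.9 and 18.4 in ZA, and 24.3, 24.4 and 23.9 in BITC+ZA, above all 9 other libraries. The rise was 0.32 ± 0.09 over vehicle (adjusted p = 0.0325), 0.34 ± 0.09 over BITC (adjusted p = 0.0130) and 0.35 ± 0.09 over ZA (adjusted p = 0.0156). After the GC and length correction the values were 0.23, 0.11 and 0.23, with adjusted p-values of 0.130, 0.527 and 0.100. The first was lost without the filter on low counts (0.32, adjusted p = 0.0515) and without vehicle 2 or 3 or any one BITC+ZA library (0.28 to 0.33, adjusted p up to 0.146), the second without BITC 1 (0.30, 0.0774) and the third without any one BITC+ZA library (0.35 to 0.36, up to 0.0629). COL1A1 (7.54 to 11.4 CPM) and COL1A2 (9.88 to 14.7 CPM), the chains of type I collagen, were not called in the 7 tests. COL1A2 had -0.33 ± 0.11 under both compounds (adjusted p = 0.0894). It was called there without ZA 1 (adjusted p = 0.0346), but not after the GC and length correction. After the correction COL1A2 was called higher in ZA than in BITC (0.36, adjusted p = 0.0365) and than with both compounds (-0.34 for both against ZA, adjusted p = 0.0492). COL5A2 and COL11A2, at 0.436 to 2.92 CPM, were not called.

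COL12A1, a FACIT that links fibrils to other matrix proteins, fell under each compound. Its CPM were 297, 290 and 288 in vehicle, 251, 270 and 247 in BITC, 244, 241 and 260 in ZA, and 250, 278 and 264 in BITC+ZA. The vehicle libraries were the 3 highest. COL12A1 fell by 0.19 ± 0.05 under BITC (adjusted p = 0.0418) and by 0.23 ± 0.05 under ZA (adjusted p = 0.0185), and had -0.15 ± 0.05 under both (adjusted p = 0.0867), which was called without ZA 1 (-0.15, adjusted p = 0.00421). The interaction was 0.28 ± 0.07 (adjusted p = 0.0288). After the GC and length correction the ZA change was -0.13 (adjusted p = 0.0341; -0.10 and 0.0539 without ZA 1 as well) and the interaction 0.18 (adjusted p = 0.0338), and -0.12 (adjusted p = 0.0208) was called under both compounds. The BITC call was lost without any one vehicle or BITC+ZA library, BITC 1 or BITC 3 (-0.20 to -0.17, adjusted p up to 0.207). That of ZA was lost without any one vehicle library or ZA 2 (-0.24 to -0.21, up to 0.149), and the interaction without any one vehicle library, BITC 1, BITC 3, BITC+ZA 2 or BITC+ZA 3 (0.24 to 0.29, up to 0.110). COL9A2, a FACIT of cartilage, had the widest value without a call, -0.95 ± 0.29 under BITC (adjusted p = 0.101), from 15 to 51 counts per library, and without ZA 1 it was called (-0.95, adjusted p = 0.0168).

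The 3 chains of type VI collagen, which assemble into one trimer, did not change together. COL6A3 had 46.5, 44.9 and 43.6 CPM in vehicle, 52.5, 57.8 and 51.1 in BITC, 42.5, 39.5 and 42.5 in ZA, and 53.6, 57.7 and 55.5 in BITC+ZA. Every library with BITC lay above every library without it. COL6A3 rose by 0.26 ± 0.07 under BITC (adjusted p = 0.0419) and by 0.30 ± 0.07 under both compounds (adjusted p = 0.00668), and by 0.42 ± 0.07 when BITC was added to ZA (adjusted p = 0.000297), and was lower in ZA than in BITC by 0.38 ± 0.07 (adjusted p = 0.00135). The last 2 calls held in each of the 12 fits that left out 1 library. After the GC and length correction all 4 calls stood, with adding BITC to ZA at 0.26 (adjusted p = 0.00334). The BITC call was lost without any one vehicle or BITC+ZA library, BITC 1 or BITC 2 (0.21 to 0.28, adjusted p up to 0.258), and that of both compounds without vehicle 3 or BITC+ZA 2 (0.27 to 0.28, up to 0.0542).

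COL6A2 was higher in ZA (20.5, 30.6 and 26.4 CPM) than in BITC (18.0, 17.9 and 20.2 CPM) by 0.47 ± 0.11 (adjusted p = 0.00786), opposite in sign to COL6A3 at -0.38. The GC content of COL6A2 is 66.4% and that of COL6A3 53.2%, and after the correction the COL6A2 difference was 0.24 (adjusted p = 0.0579). It was lost without BITC 1, BITC 2 or ZA 2 (0.33 to 0.44, adjusted p up to 0.0987). When ZA was added to BITC, COL6A2 was not called by edgeR. That rise was called by DESeq2 (0.32, adjusted p = 0.0429) and without ZA 1 (0.32, adjusted p = 0.00423), but not after the GC and length correction. COL6A1, which lies 93046 bases from COL6A2 on chromosome 21, ran from 56.9 to 69.8 CPM over the 12 libraries and was not called, with 0.15 ± 0.07 in ZA against BITC (adjusted p = 0.144). Without ZA 1 that difference was called (0.22, adjusted p = 0.00359), and after the GC and length correction it was -0.04 (adjusted p = 0.726).

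Of the remaining chains, COL18A1, a basement membrane collagen whose end fragment is endostatin, was higher in ZA (97.0, 121 and 121 CPM) than in BITC (85.0, 95.9 and 92.9 CPM) by 0.31 ± 0.07 (adjusted p = 0.00556). The difference was 0.10 (adjusted p = 0.171) after the GC and length correction, and without BITC 1 or ZA 2 it was 0.26 in both (adjusted p of 0.0588 and 0.0507). Under BITC the change of COL18A1 was -0.25 ± 0.07 (adjusted p = 0.0569), which was called by DESeq2 (-0.25, adjusted p = 0.0336), without the filter on low counts (-0.24, adjusted p = 0.00701) and without ZA 1 (-0.25, adjusted p = 8.83e-05), and was -0.09 (adjusted p = 0.328) after the correction. The correction called COL18A1 lower with both compounds than in vehicle (-0.16, adjusted p = 0.0165) and than in ZA (-0.18, adjusted p = 0.00737). COL13A1, a transmembrane collagen, was higher with both compounds (146, 136 and 139 CPM) than with BITC (121, 118 and 122 CPM) by 0.22 ± 0.07 (adjusted p = 0.0299). After the correction it was 0.07 (adjusted p = 0.342), and the call was lost without any one BITC or BITC+ZA library (0.19 to 0.24, adjusted p up to 0.124). COL8A1, from 161 to 195 CPM, was not called by edgeR, with -0.16 ± 0.05 under both compounds (adjusted p = 0.0650). This change was called by limma on log2(FPKM + 1) (-0.18, adjusted p = 0.0448), without ZA 1 (-0.16, adjusted p = 0.00361), in the fit of only these 2 groups (-0.15, adjusted p = 0.000906) and after the GC and length correction (-0.13, adjusted p = 0.0268), which also called COL8A1 lower than in ZA (-0.19, adjusted p = 0.000853). COL17A1, COL15A1 and COL16A1 were not called in the 7 tests. Without ZA 3, COL17A1 was called higher with both compounds than with ZA (0.54, adjusted p = 0.0123), and its interaction was called (0.58, adjusted p = 0.0487). Neither was called without ZA 1 or after the GC and length correction.

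**Figure D4:**
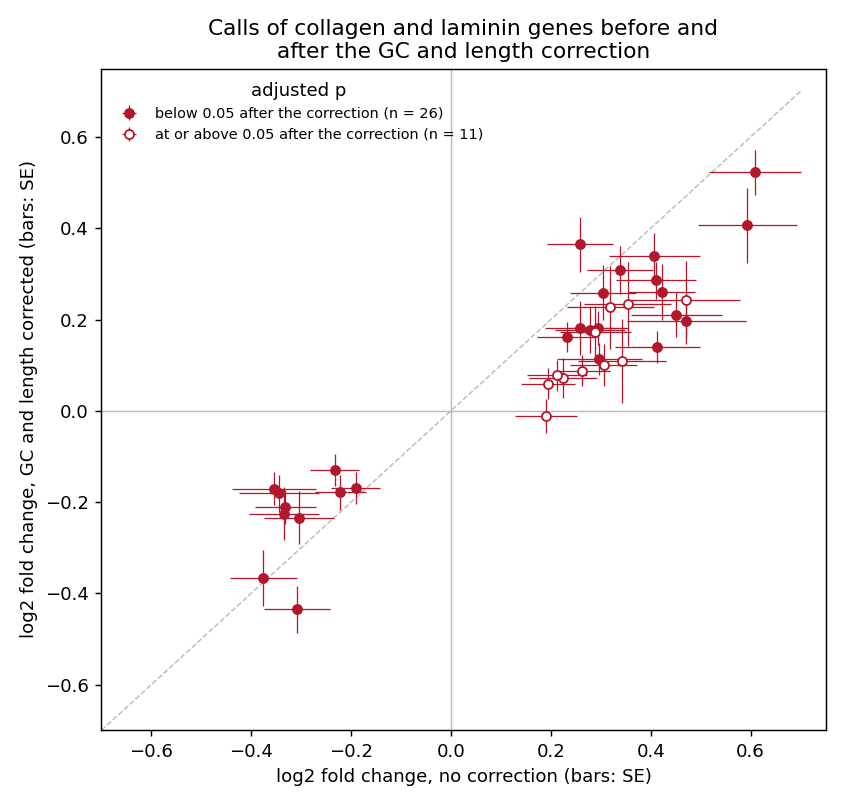
Log2 fold changes of 37 calls without (horizontal) and with (vertical) the correction for GC content and length, with standard errors. Of them 26 were still called after the correction (filled) and 11 were not (open), and 1 of the open points, COL5A1 with ZA added to BITC, changed sign.

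The genes that make, process and bind these chains were counted whole from lists of known members. Their calls were not checked without ZA library 1 or any other single library. Against vehicle, the shares of all genes called were 1.78% for BITC, 1.06% for ZA and 4.9% for both compounds. Of 19 genes for collagen biosynthesis and secretion, 0 were called under BITC (4 at an unadjusted p below 0.05) or under ZA (3 at an unadjusted p below 0.05) in edgeR, and 2 under both compounds, the prolyl hydroxylases P3H2 (-0.24 ± 0.05, adjusted p = 0.00897) and P4HA3 (1.90 ± 0.53, adjusted p = 0.0354, mean CPM of 0.274 in vehicle and 1.04 with both). Of 10 tested genes for procollagen processing and crosslinking 1 was called under BITC and 1 under both compounds. This was LOXL2, a lysyl oxidase that acts on type IV collagen, which fell under BITC by 0.32 ± 0.05 (277 ± 5 to 222 ± 7 CPM, SD, n = 3, adjusted p = 0.000128) and under both compounds by 0.21 ± 0.05 (adjusted p = 0.00578). Of 12 tested receptor genes 1 was called under BITC and 2 under both compounds. ITGB4, the integrin chain that binds laminin in hemidesmosomes, fell under BITC by 0.46 ± 0.06 (183 ± 8 to 133 ± 1 CPM, SD, n = 3, adjusted p = 3.40e-05). ITGA6 (-0.16 ± 0.04, adjusted p = 0.0263) and ITGB1 (-0.20 ± 0.04, adjusted p = 0.00656) fell under both compounds, to -0.11 and -0.12 after the GC and length correction. Of 7 tested basement membrane partners, the heparan sulfate proteoglycan HSPG2 fell under BITC by 0.40 ± 0.08 (adjusted p = 0.0118, and -0.21 after the correction) and FRAS1, a protein of epithelial basement membranes, by 0.62 ± 0.13 (adjusted p = 0.00992). FRAS1 also fell under both compounds (-0.56 ± 0.13, adjusted p = 0.0101). HSPG2 had an interaction of 0.59 ± 0.11 (adjusted p = 0.0104), which was 0.28 (adjusted p = 0.0196) after the GC and length correction. It was the one called interaction in the 4 lists. HSPG2 had 192 ± 3 CPM in vehicle, 146 ± 6 in BITC, 158 ± 27 in ZA and 182 ± 6 in BITC+ZA (SD, n = 3). In ZA against BITC, 0 biosynthesis genes (2 at an unadjusted p below 0.05), 2 processing genes (both higher), 4 receptors (3 higher, 1 lower) and 1 partner (FN1, lower) were called, against 10.5% of all genes. After the GC and length correction LOXL1 (0.23, adjusted p = 0.255), BCAM (0.12, adjusted p = 0.338) and ITGB1 (-0.05, adjusted p = 0.232) among them were not called, and FN1 moved from -0.22 to -0.10. LOXL2 moved from 0.27 to 0.16 (adjusted p = 0.00179) and DDR1 from 0.34 to 0.20 (adjusted p = 0.0106), and both were still called. ITGB4 was higher in ZA than in BITC by 0.51 ± 0.06 (adjusted p = 6.41e-06), and by 0.33 after the correction. Adding ZA to BITC lowered PLOD2, LOX and ITGB1 and raised BMP1, ITGB4, BCAM, DDR1, HSPG2 and AGRN (14.7% of all genes were called). ITGB4 rose by 0.26 and HSPG2 by 0.32, and by 0.05 and 0.03 after the correction. Of these calls only that of ITGB1 stood after the correction (-0.09, adjusted p = 0.0215). Adding BITC to ZA lowered LOXL2 and ITGB4 and raised FN1, which lost its call after the correction (6.95% of all genes were called). None of the 48 genes tested in these lists was called under ZA in edgeR. Of them 10 had an unadjusted p below 0.05, against 2271 of all 14950 genes tested.

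In the authors' deposited tables, which compare 6 libraries at a time, 10 of the 32 tested chains had an adjusted p below 0.05 for BITC (1 higher, 9 lower), against 3.72% of the genes listed. The authors' deposited tables gave 2 for ZA (both lower, against 0.395%) and 12 for both compounds (6 higher, 6 lower, against 6.76%). Between treated groups, the authors' deposited tables gave 8 for ZA against BITC (6 higher, 2 lower, against 2.4%), 12 for adding ZA to BITC (11 higher, 1 lower, against 11.6%) and 4 for adding BITC to ZA (3 higher, 1 lower, against 1.59%). The shares are over all genes listed, 24775 for BITC, with those of few counts, whereas the 32 chains passed the filter on low counts. Counts of chains and shares of genes are therefore not on the same footing here.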

How the data were processed

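RNA-seq counts of 12 libraries were read from the authors' deposited raw count columns per gene, joined over 6 pairwise tables, in which shared libraries had 0 conflicting counts. The authors' deposited FPKM values were used for levels between genes, and the deposited log2 fold changes and adjusted p-values were used only where the authors' tables are named. The normalised signal columns of the authors' deposited tables were not used in any result. Reads were aligned with HISAT2 to GRCh38 and compared with DESeq2 1.20.0, per the submitters' processing notes, and no source used here states the counter, annotation release or strand setting.

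Genes were filtered with filterByExpr, scaled by TMM and tested in R 4.3.3 with edgeR 4.0.16 (quasi-likelihood F test, 12 libraries, 4 groups, no block), with Benjamini-Hochberg adjustment over 14950 genes and a threshold of 0.05. The standard error is the size of the log2 change over the square root of F. CPM are counts scaled to library size after TMM. Alternatives were DESeq2 1.42.0 size factors and Wald test, no filter, the replicate number as a block, a correction by splines of GC content and length (5 degrees of freedom each), leaving out each library, fitting only the groups compared, and limma 3.58.1 on log2(FPKM + 1) or log2(FPKM + 0.1). GC content was that of the longest GENCODE v29 transcript, and length was the deposited gene length. The counts' scripts were tested on simulated data. Members were named with values when called, when among the 15 highest by FPKM, or when chains of a trimer named above. The result of 1 member is not reported here, and that member is left out of the figures. The members and lists were chosen with earlier results of these data known. Totals of 15874857 to 17375664 counts per library leave genes of a few reads without a usable test.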

Additional observations from a re-analysis of the deposited data

Results flagged for a closer look

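In 3 chains the effect of BITC differed between cells without and with ZA by the test of the interaction. LAMA3 had an interaction of 0.5931 on the log2 scale, from a BITC change of -0.30 without ZA and 0.29 with it. LAMA5 had 0.4709, from -0.35 and 0.12. COL12A1 had 0.2784, from -0.19 and 0.09. All are given with their tests in the results above.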

How the results depend on the processing

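DESeq2 size factors, DESeq2's Wald test and the replicate block kept all 38 member calls, leaving out the filter on low counts kept 37, and the GC and length correction kept 27. Libraries of the same replicate number correlated little in their deviations (-0.06 to 0.06 in 18 pairs, median 0.021, 0 over 0.1). The 36 pairs of other numbers had -0.08 to 0.07 (median -0.0096). Correlations over all genes cannot exclude a shared dish or day. With the replicate block the counts were 7, 2, 5, 10, 10, 5 and 3, in the order BITC, ZA and both against vehicle, ZA against BITC, both against BITC, both against ZA, and the interaction (6, 2, 5, 9, 8, 5 and 3 without it). The shares of all genes with the block were 2.11%, 1.46%, 5.63%, 11.9%, 16.9%, 7.77% and 3.77%. Leaving out 1 library gave 0 to 12, 0 to 12, 2 to 12, 3 to 15, 2 to 13, 2 to 12 and 1 to 5. The shares of all genes called ranged with them, over 0.667 to 9.79%, 0.00655 to 16.3%, 1.89 to 14.6%, 2.49 to 29.6%, 3.43 to 26.9%, 2.41 to 12.7% and 0.627 to 6.03%, so a count of chains alone does not show a change particular to them. The GC and length correction gave 4 for ZA, 10 for both against vehicle, 4 for both against BITC and 9 for both against ZA. With the block as well it gave 10, 4 and 8 for the last 3, and without ZA 1 it gave 4, 10, 5 and 11. The share of all genes was 2.24%, 7.59%, 8.64% and 10.3% with the correction, 7.27%, 8.45% and 9.8% with the block as well, and 6.09%, 10.9%, 13.3% and 10.9% without ZA 1. Fitting only the groups compared gave 11, 0 (3 at an unadjusted p below 0.05), 13, 3, 13 and 2, against 9.77%, 0.00699%, 19.4%, 1.27%, 27.7% and 1.59% of all genes. With limma on log2(FPKM + 1) the counts were 0 for BITC, 0 for ZA, 2 for both against vehicle, 4 for both against BITC, 2 for both against ZA and 0 for the interaction, against 0.783%, 0.00669%, 4.43%, 10.6%, 4.11% and 0.0535% of all genes. A pseudocount of 0.1 gave 0, 0, 2, 5 (ZA against BITC), 3, 2 and 0, with 0.00669 to 10.6% of all genes called. Limma without a filter gave 0, 0, 1, 0, 0, 1 and 0, with 0.0165 to 1.18% of all genes called. At an unadjusted p below 0.05 limma had 12 or 13 chains for BITC, 4 for ZA and 6 for the interaction, and without a filter 11 for ZA against BITC and 13 for both against BITC. COL5A1 in both against BITC turned from 0.19 to -0.0114 with the GC and length correction, -0.011 with the block as well and -0.012 without ZA 1. The cause of these shifts was not tested. Chains of a few counts per library stayed out of every test but the unfiltered ones.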
